A study of Mus musculus with 28 samples.

Results

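The genes described here are 7 chemokine genes (Ccl2, Ccl7, Ccl5, Cxcl1, Cxcl2, Cxcl5 and Cxcl10), the colony-stimulating factor genes Csf1 and Csf3, and Ackr1, a chemokine-binding receptor. A gene was taken in when the array annotation gave a probe set its symbol and no other. All 10 genes were found, each with 1 probe set, among 15224 genes that have such a probe set. They were followed in mouse skeletal muscle after an injection into the ventricles of the brain of either vehicle or interleukin 1b (IL-1b), a cytokine of acute inflammation. The 28 arrays form 6 groups: vehicle at 2, 4 and 8 h with 5 arrays each, and IL-1b at 2, 4 and 8 h with 5, 5 and 3 arrays. The sources used here do not give strain, age, IL-1b dose or the muscle sampled, and no allele or other agent is named for any group. Nothing in the labels ties each array to its own mouse, and p-values thus reflect spread among the arrays, which may be technical.

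Chemokines are small secreted proteins that draw leukocytes along gradients by acting on G protein-coupled receptors. Ccl2 and Ccl7 attract monocytes through Ccr2, the Cxcl1, Cxcl2 and Cxcl5 proteins attract neutrophils through Cxcr2, and Ccl5 and Cxcl10 attract T cells among others. Csf1 keeps macrophages alive and growing, and Csf3 drives the making and release of neutrophils. Ackr1 binds many inflammatory chemokines without G protein signalling; it sits on venular endothelium, where it carries chemokines across the vessel wall, and on red cells. Interleukin 1 signalling through NF-kB is a classic inducer of many of these genes in endothelial and stromal cells.

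Values are log2 and were centred on 0 for each probe set before deposit, so a value tells how an array stands against the other arrays for that gene and not how strongly the gene is expressed. For the same reason the tissue and cell types could not be checked against the level of their defining markers, and it was not tested whether a probe set lay above background. A gene was called when limma's moderated test gave an adjusted p under 0.01 (Benjamini-Hochberg over all 17831 probe sets), the false discovery rate the study's design names. Errors beside differences are standard errors (SE) of that model, and intervals are its 95% intervals. Both use the spread of a gene within all 6 groups together, so 1 widely spread group widens them in every comparison. The array values of 3 arrays were spread more widely than the rest: vehicle 2 h replicate 7, vehicle 8 h replicate 1 and IL-1b 8 h replicate 22 had SDs over probe sets of 0.298, 0.317 and 0.330, against at most 0.223 in the others. IL-1b 2 h replicate 2 stood apart in another way. In the 4 other IL-1b arrays at 2 h Vcam1, an adhesion molecule of activated endothelium, was between 1.79 and 1.93, and in replicate 2 it was -0.04, among the vehicle arrays. This did not hold for every gene, as Icam1, another adhesion molecule, was 0.19 there, above all vehicle arrays at 2 h (at most 0.15). For the 10 genes and the chemokine, receptor and colony factor lists, differences that passed the test are given also without those of these arrays that entered them. Replicate 2 was singled out for lacking the rise of the 4 others. For genes high in those 4, leaving it out had to give a larger difference, so a smaller p there is no separate support.

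At 2 h after IL-1b, Csf1 was the 1 member of 10 that passed the test, and it was higher. Ccl2 and Ackr1 differed by a similar amount and missed the threshold. These 3 genes were high in the same 4 of 5 IL-1b arrays and not in replicate 2. The other 7 members differed by at most 0.21 on the log2 scale. Over all probe sets, 13 of 17831 (0.0729%) were called at this time, 10 higher (0.0561%) and 3 lower, and 3 members had an unadjusted p under 0.05, as had 1885 probe sets. At a looser threshold of 0.05, 3 of 10 members and 0.247% of probe sets passed. With only the arrays of 2 h fitted, Csf1, Ccl2 and Ackr1 did not pass (limma adjusted p = 0.179, 0.228 and 0.149). The median difference was 0.069 for the members and -0.019 for all probe sets.

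Csf1, the macrophage growth factor, had values of 0.0039, 0.0020, 0.0036, 0.028 and -0.20 in vehicle replicates 1, 5, 7, 9 and 11 at 2 h. In IL-1b replicates 2, 4, 8, 10 and 12 it had -0.19, 0.99, 1.21, 1.32 and 1.01. Replicates 4, 8, 10 and 12 stood well above every vehicle array, and replicate 2 lay within the vehicle range. Csf1 rose by 0.90 ± 0.16 (SE, 5 arrays per group, 95% interval 0.57 to 1.23, limma adjusted p = 0.00979), or 1.87-fold. It had the 13th smallest p of all probe sets, the last to pass. Without replicate 2 the difference was 1.16 (limma adjusted p = 5.10e-11), and without any single one of the other 9 arrays it did not pass (0.79 to 0.91, limma adjusted p from 0.0213 to 0.0550). Without the 3 widely spread arrays it was 0.91 and did not pass (limma adjusted p = 0.0291).

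Ccl2 (MCP-1, the main monocyte attractant) had values of 0.16, 0.0074, 0.30, 0.14 and -0.14 in vehicle replicates 1, 5, 7, 9 and 11 at 2 h. In IL-1b replicates 2, 4, 8, 10 and 12 it had -0.20, 1.16, 1.18, 1.70 and 1.69. Replicate 2 was the lowest of the 10 arrays and the 4 others were the highest. The difference of 1.01 ± 0.21 (2.01-fold, 95% interval 0.58 to 1.44) did not pass (n = 5 per group, limma adjusted p = 0.0290). Without replicate 2 it was 1.34 and passed (limma adjusted p = 1.91e-08), and without any other single array it was at least 0.86 and did not pass (limma adjusted p up to 0.121). Without the 3 widely spread arrays it was 1.06 and did not pass (limma adjusted p = 0.0491). The spread of Ccl2 within groups was wide, with a residual SD of 0.353 against a median of 0.146 over all probe sets.

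Ackr1 had values of 0.021, -0.082, 0.14, 0.063 and -0.30 in vehicle replicates 1, 5, 7, 9 and 11 at 2 h. In IL-1b replicates 2, 4, 8, 10 and 12 it had -0.078, 1.07, 0.99, 0.99 and 0.91. The 4 high arrays lay close together and replicate 2 lay among the vehicle arrays. The difference of 0.81 ± 0.15 (1.75-fold, 95% interval 0.50 to 1.11) just missed the threshold (n = 5 per group, limma adjusted p = 0.0112). Without replicate 2 it was 1.02 and passed (limma adjusted p = 3.37e-07), and it did not pass without any other single array, nor without the 3 widely spread arrays (0.85, limma adjusted p = 0.0176).

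**Figure D1:**
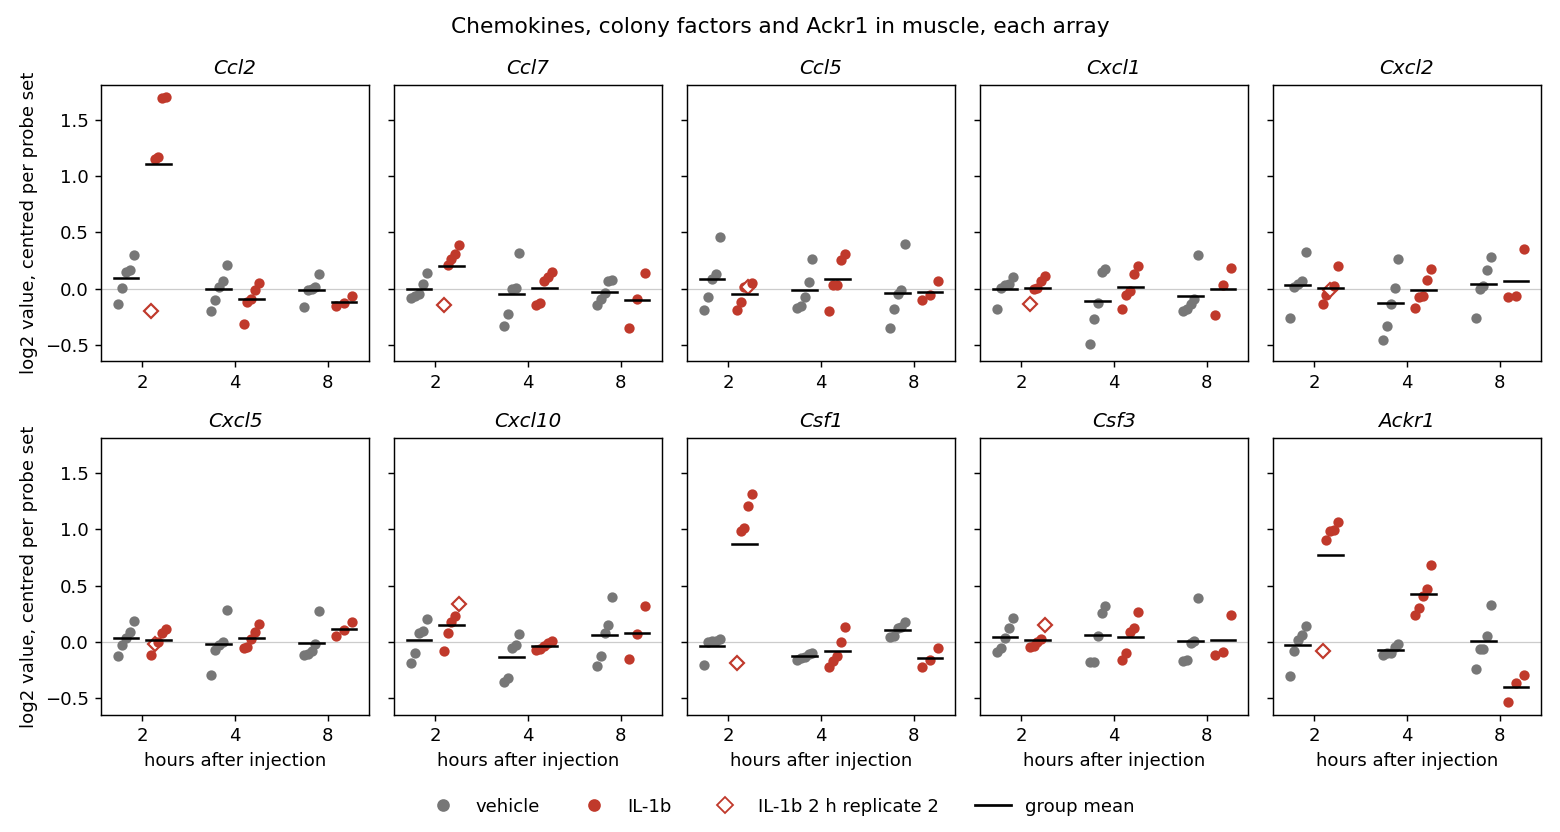
Centred log2 value of each of the 10 genes in each array, by time after injection, with vehicle in grey, IL-1b in red, group means as black lines and IL-1b 2 h replicate 2 as an open diamond. For Ccl2, Csf1 and Ackr1 at 2 h, 4 IL-1b arrays sit between 0.91 and 1.70 and replicate 2 sits between -0.20 and -0.078, within the vehicle range for Csf1 and Ackr1 and below every vehicle array for Ccl2.

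Ccl7 (MCP-3), which lies next to Ccl2 on chromosome 11 with 0 coding genes between them, was 0.26, 0.21, 0.31 and 0.39 in IL-1b replicates 4, 8, 10 and 12 and -0.15 in replicate 2, against -0.081 to 0.14 in vehicle. Its 4 higher arrays are the same that were high for Ccl2, but the difference was small. It came to 0.21 ± 0.11 (95% interval -0.014 to 0.43) and did not pass (n = 5 per group, limma adjusted p = 0.486), nor did it without replicate 2 (0.29, limma adjusted p = 0.225). Ccl5 (RANTES, an attractant of T cells and monocytes) lies further along the same chromosome with 29 coding genes between it and Ccl7. It ran from -0.19 to 0.048 in IL-1b and from -0.19 to 0.46 in vehicle, a difference of -0.13 ± 0.12 (n = 5 per group, limma adjusted p = 0.681).

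The neutrophil attractants showed no difference that passed. Cxcl1 (KC) ran from -0.14 to 0.11 in IL-1b and from -0.18 to 0.10 in vehicle, a difference of 0.0084 with an interval of -0.22 to 0.24 (n = 5 per group, limma adjusted p = 0.978). Cxcl2 (MIP-2) ran from -0.14 to 0.20 against -0.26 to 0.32, a difference of -0.033 with an interval of -0.29 to 0.22 (n = 5 per group, limma adjusted p = 0.927). Cxcl5 (LIX) ran from -0.11 to 0.11 against -0.12 to 0.18, with an interval of -0.19 to 0.16 around -0.019 (n = 5 per group, limma adjusted p = 0.936). The groups overlapped almost wholly for each of the 3 genes.

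Cxcl10 (IP-10, an interferon-induced attractant of T cells) ran from -0.078 to 0.34 in IL-1b and from -0.18 to 0.20 in vehicle. Its highest IL-1b array was replicate 2, the array that was low for Ccl2, Csf1 and Ackr1. The difference was 0.13 ± 0.11 (n = 5 per group, limma adjusted p = 0.648). Csf3 (G-CSF) ran from -0.044 to 0.15 against -0.089 to 0.21, a difference of -0.024 with an interval of -0.25 to 0.20 (n = 5 per group, limma adjusted p = 0.938). Over the 3 times, the 21 intervals of these 7 members reached at most 0.43 on the log2 scale, or 1.35-fold, to either side. The 7 were grouped after their values were seen. Because the table holds no level, a gene that kept its level and a gene too dim on the array to show a change cannot be told apart.

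**Figure D2:**
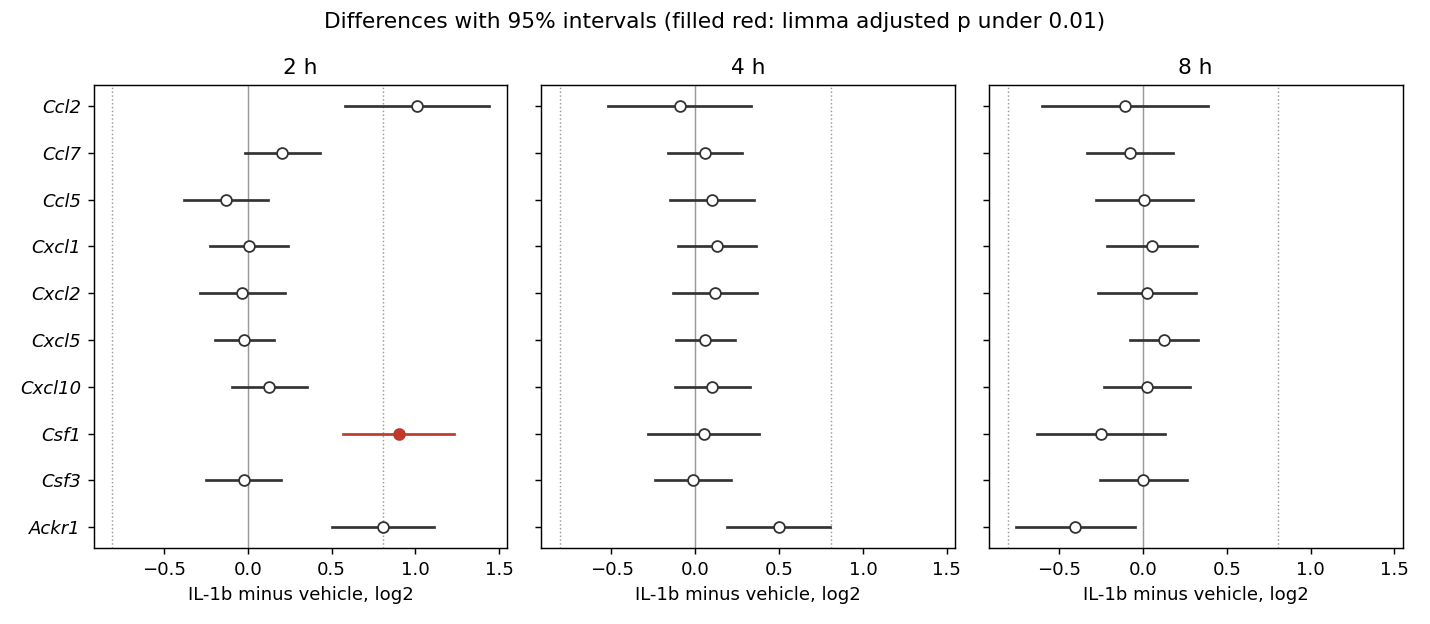
Difference IL-1b minus vehicle of each of the 10 genes at 2, 4 and 8 h on the log2 scale, with the model's 95% interval as bars, a filled red point where the test passed, dotted lines at a change of 1.75-fold, and n = 5 per group except IL-1b at 8 h (n = 3). At 2 h Ccl2, Csf1 and Ackr1 sit at 1.01, 0.90 and 0.81, and the 7 other genes lie between -0.13 and 0.21.

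Promoter sequence is shown for Csf1 and Ackr1, which were high in 4 IL-1b arrays at 2 h, and for the neutrophil attractants Cxcl1 and Cxcl2, which were not, so that they can be read side by side. The RefSeq tables (GRCm38.p6) hold the 250 bases before the start of 5 members: Csf1, Ackr1, Cxcl1, Cxcl2 and Cxcl10. Ccl2, Ccl7, Ccl5, Cxcl5 and Csf3 are named only. The windows are chr3:107760470-107760719 on the minus strand for Csf1, chr1:173333504-173333753 on the minus strand for Ackr1, chr5:90890995-90891244 on the plus strand for Cxcl1 and chr5:90903649-90903898 on the plus strand for Cxcl2. Each is written 5′ to 3′ on the gene's own strand, with matches to the NF-kB consensus, searched on both strands, in capitals.
Csf1: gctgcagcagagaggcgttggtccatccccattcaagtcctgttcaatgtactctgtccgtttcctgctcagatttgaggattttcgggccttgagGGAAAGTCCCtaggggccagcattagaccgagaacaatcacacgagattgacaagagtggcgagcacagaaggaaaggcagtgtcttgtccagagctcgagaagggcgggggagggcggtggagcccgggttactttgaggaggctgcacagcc
Ackr1: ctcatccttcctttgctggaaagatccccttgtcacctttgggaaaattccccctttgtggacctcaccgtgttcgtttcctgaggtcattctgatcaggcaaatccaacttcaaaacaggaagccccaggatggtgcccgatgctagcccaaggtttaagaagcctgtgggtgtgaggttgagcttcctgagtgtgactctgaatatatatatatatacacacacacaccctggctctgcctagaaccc
Cxcl1: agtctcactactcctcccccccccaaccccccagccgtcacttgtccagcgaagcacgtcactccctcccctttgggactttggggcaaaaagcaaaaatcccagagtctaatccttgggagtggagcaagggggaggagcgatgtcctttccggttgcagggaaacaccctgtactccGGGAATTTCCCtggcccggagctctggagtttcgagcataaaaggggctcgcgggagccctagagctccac
Cxcl2: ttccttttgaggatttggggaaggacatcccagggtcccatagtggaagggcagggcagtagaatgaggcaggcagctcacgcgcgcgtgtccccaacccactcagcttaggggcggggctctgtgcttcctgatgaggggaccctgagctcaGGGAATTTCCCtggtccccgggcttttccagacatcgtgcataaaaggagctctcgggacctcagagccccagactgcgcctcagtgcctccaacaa
The consensus matched 4 of the 5 member promoters and 1281 of 32851 promoters of this length (3.9%). Csf1 held 1 match, at bases 97 to 106 of the window. Cxcl1 and Cxcl2, neighbours on chromosome 5 with 0 coding genes between them, each held a pair of overlapping matches on opposite strands that together cover 11 bases, at bases 180 to 190 and 154 to 164. Cxcl10 held 2, at bases 92 to 101 and 148 to 157 of chr5:92348890-92349139 on the minus strand. The Ackr1 window held 0 matches. Of the genes with a match, Csf1 passed the test at 2 h and Cxcl1, Cxcl2 and Cxcl10 did not. A match is a description of letters and not of a bound site.

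At 4 h, 0 of 10 members passed, against 151 of 17831 probe sets (0.847%), and 1 member had an unadjusted p under 0.05, as had 1565 probe sets. That member was Ackr1. It had values of 0.41, 0.30, 0.24, 0.47 and 0.69 in IL-1b replicates 4, 13, 15, 18 and 22, against -0.10, -0.095, -0.021, -0.12 and -0.049 in vehicle replicates 1, 3, 5, 7 and 17. All 5 IL-1b arrays lay above all 5 vehicle arrays, which held for 1 of 10 members and for 1.85% of probe sets in that direction. The difference of 0.50 ± 0.15 (1.41-fold, 95% interval 0.19 to 0.80) did not pass (n = 5 per group, limma adjusted p = 0.112), and it did when only the arrays of 4 h were fitted (limma adjusted p = 0.00779). Ccl2 lay between -0.31 and 0.046 in IL-1b and between -0.20 and 0.21 in vehicle, and Csf1 between -0.23 and 0.13 against -0.16 and -0.10. No array of either gene at 4 h reached the height of the 4 IL-1b arrays at 2 h. Their differences were -0.094 ± 0.21 and 0.049 ± 0.16 (limma adjusted p = 0.958 and 0.974), and those of the 7 others ran from -0.014 for Csf3 to 0.13 for Cxcl1. The median difference was 0.080 for the members and 0.0033 for all probe sets.

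At 8 h, 0 of 10 members passed, against 373 of 17831 probe sets (2.09%), and 1 member had an unadjusted p under 0.05, again Ackr1, as had 2301 probe sets. Ackr1 had values of -0.37, -0.29 and -0.54 in IL-1b replicates 14, 22 and 26. In vehicle replicates 1, 9, 13, 17 and 21 it had -0.24, -0.061, 0.052, -0.062 and 0.33. All 3 IL-1b arrays lay below all 5 vehicle arrays, the opposite side from 4 h. The difference was -0.40 ± 0.17 (95% interval -0.76 to -0.049) and did not pass (n = 3 and 5, limma adjusted p = 0.277). Csf1 had values of -0.058, -0.17 and -0.22 in the IL-1b arrays and 0.12, 0.039, 0.048, 0.13 and 0.18 in vehicle. Here too the IL-1b arrays were all the lower ones, by 0.25 (a difference of -0.25 ± 0.19, limma adjusted p = 0.711), which did not pass. IL-1b arrays below all vehicle arrays were seen for these 2 of 10 members and for 3.93% of probe sets. Ccl2 differed by -0.11 ± 0.24 (limma adjusted p = 0.954), and the 7 others by -0.075 (Ccl7) to 0.13 (Cxcl5). The median was 0.0062 for the members and -0.00044 for all probe sets.

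Whether the IL-1b effect differed between times was tested directly. From 2 h to 8 h the effect on Ackr1 fell by 1.21 ± 0.23 on the log2 scale (95% interval -1.68 to -0.74, limma adjusted p = 0.00444), which was the 1 member of 10 called, against 94 of 17831 probe sets (0.527%), 44 of them lower (0.247%). At a threshold of 0.05, 2 of 10 members and 1.24% of probe sets passed. Without IL-1b 2 h replicate 2 the change was -1.42 (limma adjusted p = 1.09e-06). Over 18 fits that left out 1 array each it ran from -1.42 to -1.13 and passed in 10. The call was lost without IL-1b 2 h replicates 4, 8, 10 or 12, IL-1b 8 h replicates 14, 22 or 26, or vehicle 8 h replicate 21 (limma adjusted p up to 0.0195). Without the 3 widely spread arrays the change was -1.37 and just missed the threshold (limma adjusted p = 0.0106). The effect on Csf1 differed by -1.15 ± 0.25 (limma adjusted p = 0.0135) and that on Ccl2 by -1.12 ± 0.32 (limma adjusted p = 0.0890) between 8 h and 2 h, and neither passed. Without replicate 2 both did, at -1.41 (limma adjusted p = 4.10e-09) and -1.44 (limma adjusted p = 6.87e-06).

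Between 2 h and 4 h, 0 of 10 members passed (9 of 17831 probe sets, 0.0505%), and 2 had an unadjusted p under 0.05, as had 1785 probe sets. The effect on Ccl2 differed by -1.10 ± 0.29 (limma adjusted p = 0.235) and that on Csf1 by -0.85 ± 0.23 (limma adjusted p = 0.236). The effect on Ackr1 differed by -0.31 ± 0.21 (limma adjusted p = 0.585), so a loss of its 2 h difference by 4 h was not shown. Without IL-1b 2 h replicate 2, Ccl2 and Csf1 passed at -1.43 and -1.11 (limma adjusted p = 4.25e-06 and 2.87e-07). Between 4 h and 8 h, 0 of 10 members passed (31 of 17831 probe sets, 0.174%), and 1 had an unadjusted p under 0.05, as had 1271 probe sets. That member was Ackr1, which differed by -0.90 ± 0.23 (limma adjusted p = 0.0798). The 3 time comparisons share arrays with each other and with the effects at each time.

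**Figure D3:**
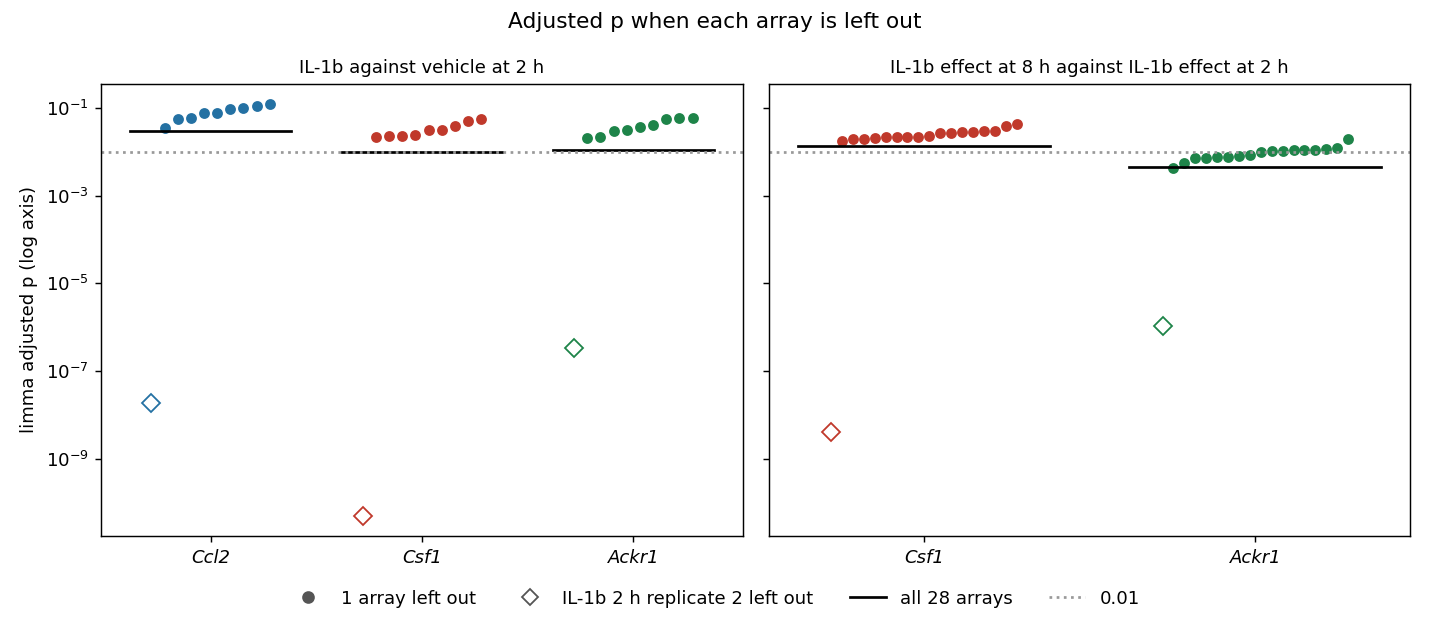
Adjusted p of limma's test, on a log axis, when each array is left out in turn, for Ccl2, Csf1 and Ackr1 at 2 h (left) and for the IL-1b effect at 8 h against that at 2 h of Csf1 and Ackr1 (right). Points are fits without 1 array, open diamonds the fits without IL-1b 2 h replicate 2, black lines the fit of all 28 arrays and the dotted line the threshold of 0.01. The diamonds at 2 h lie at 1.91e-08, 5.10e-11 and 3.37e-07, and every other fit at 2 h with an array left out lies above the threshold.

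Among vehicle arrays over time, 0 of 10 members passed limma's test in any comparison and 0 had an unadjusted p under 0.05. Such a p was found for 1994 of 17831 probe sets between 2 h and 4 h, 1832 between 2 h and 8 h and 1502 between 4 h and 8 h. Over all probe sets, 18 (0.101%) were called between 2 h and 4 h, 152 (0.852%) between 2 h and 8 h and 23 (0.129%) between 4 h and 8 h. Csf1 was the member with separated groups. Its 5 vehicle arrays at 8 h (0.039 to 0.18) all lay above those at 2 h (-0.20 to 0.028) and at 4 h (-0.16 to -0.10). Vehicle arrays at 8 h above all of those at 2 h were seen for 1.06% of probe sets, and above all of those at 4 h for 1.22%. The differences of Csf1 were 0.14 ± 0.16 (n = 5 per group, limma adjusted p = 0.951) and 0.23 ± 0.16 (n = 5 per group, limma adjusted p = 0.760). These SEs pool the spread within all 6 groups. The SD of Csf1 was 0.605 in IL-1b at 2 h, and 0.095, 0.023 and 0.058 in vehicle at 2, 4 and 8 h. The higher vehicle arrays at 8 h thus stand beside the lower IL-1b value of Csf1 at that time.

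The study's own rule was a test over the 6 groups with a change of at least 1.75-fold at any time. With limma's moderated F-test in that place, it took 122 of 17831 probe sets (0.684%) and 2 of 10 members, Ccl2 (adjusted p = 0.000768) and Csf1 (adjusted p = 0.000322). Ackr1 had the smallest p of the 10 (adjusted p = 8.12e-05), and its 2 h change of 1.749-fold lay just under the fold limit. With the 3 widely spread arrays left out it was taken too, and after further quantile normalization Csf1 was the 1 member taken.

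Of 30 other chemokine ligand genes, 26 were measured, and 0 passed limma's test at 2 h or 4 h, with 8 and 5 at an unadjusted p under 0.05. Over all 17831 probe sets, 1885 and 1565 had such a p at these times. At 8 h, when 2.09% of probe sets were called, 1 was lower, Cxcl12, the ligand that holds stem cells and lymphocytes in place through Cxcr4. It had -0.17, -0.23 and -0.29 in the IL-1b arrays and -0.018 to 0.27 in vehicle. It fell by 0.38 on the log2 scale (SE 0.08, n = 3 and 5, limma adjusted p = 0.00456), and in 8 fits that left out 1 array each it passed in 3. After further quantile normalization and with only the arrays of 8 h fitted it did not pass (limma adjusted p = 0.0368 and 0.117). Without IL-1b 8 h replicate 22 it did not (-0.38, limma adjusted p = 0.0202), and without the 3 widely spread arrays it did (-0.42, limma adjusted p = 0.00805). The effect at 8 h was called below that at 2 h for 2 of 26, and for 0.247% of probe sets. The 2 were Cx3cl1 and Cxcl16, the latter named after its value was seen. Both genes encode membrane-bound chemokines that can be shed. Cx3cl1 was 0.61 to 0.68 in IL-1b replicates 4, 8, 10 and 12 at 2 h and -0.10 in replicate 2, and the effect differed by -0.88 ± 0.17 (limma adjusted p = 0.00647). It passed in 6 of 18 fits that left out 1 array each (-1.03 to -0.78, limma adjusted p up to 0.0322). Without replicate 2 it passed at -1.03 (limma adjusted p = 1.455e-05), and without the 3 widely spread arrays it did not (-0.95, limma adjusted p = 0.0119). Cxcl16 was 0.46 to 0.77 in those 4 arrays and -0.0017 in replicate 2, and its effect differed by -0.90 ± 0.18 (limma adjusted p = 0.00916). That call was kept in 4 of 18 such fits (-1.03 to -0.80, limma adjusted p up to 0.0434), 1 of them without replicate 2 (-1.03, limma adjusted p = 0.000311). It was lost without the 3 widely spread arrays (-0.89, limma adjusted p = 0.0536).

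Of 22 chemokine receptor genes, 20 were measured, and 0 passed limma's test at 2 h or 4 h, with 2 and 1 at an unadjusted p under 0.05. Over all 17831 probe sets, 1885 and 1565 had such a p. At 8 h, when 2.09% of probe sets were called, 1 was lower, Ackr3, a scavenging receptor for Cxcl12. It had -0.60, -0.13 and -0.53 in the IL-1b arrays and -0.064 to 0.072 in vehicle, a fall by 0.43 on the log2 scale (SE 0.10, n = 3 and 5, limma adjusted p = 0.00842) that passed in 1 of 8 fits with an array left out. That fit was the one without IL-1b 8 h replicate 22 (-0.57, limma adjusted p = 0.000615), and without the 3 widely spread arrays Ackr3 passed too (-0.56, limma adjusted p = 0.00152). After further quantile normalization and with only the arrays of 8 h fitted Ackr3 did not pass (limma adjusted p = 0.0512 and 0.170). Among the receptors of the members, Cxcr2, which binds Cxcl1, Cxcl2 and Cxcl5, was 0.050 to 0.81 in the IL-1b arrays at 2 h and -0.28 to -0.019 in vehicle. The groups did not overlap, as for 1.1% of probe sets with IL-1b higher, and the difference of 0.59 ± 0.12 did not pass (n = 5 per group, limma adjusted p = 0.0250). Ccr2, the receptor of Ccl2 and Ccl7, differed by -0.0089 ± 0.089 (limma adjusted p = 0.972).

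Of 15 other colony and growth factor genes of blood cells and their receptors, 12 were measured. At 4 h 1 passed, as did 0.847% of probe sets, and 0 passed limma's test at 2 h or 8 h. At an unadjusted p under 0.05 there were 4 at 2 h and 0 at 8 h, and 1885 and 2301 of 17831 probe sets. Csf2rb, the signalling chain shared by the receptors for IL-3, IL-5 and GM-CSF, had 0.75, 0.74, 0.64, 0.98 and 0.80 in IL-1b arrays at 4 h and -0.17 to -0.069 in vehicle. It rose by 0.91 ± 0.08 (1.88-fold, n = 5 per group, limma adjusted p = 6.72e-08) and passed in 10 of 10 fits with an array left out. At 2 h it was 0.30 to 0.46 in IL-1b replicates 4, 8, 10 and 12 and -0.087 in replicate 2 (a difference of 0.30, limma adjusted p = 0.141), and at 8 h it differed by -0.031. Its effect fell by 0.94 from 4 h to 8 h (SE 0.12, limma adjusted p = 0.000138), and this passed in 18 of 18 fits with an array left out and without the 3 widely spread arrays (-0.93, limma adjusted p = 0.00114). Csf1r, the receptor of Csf1, was -0.41 to -0.12 in IL-1b at 2 h and 0.051 to 0.27 in vehicle. The groups did not overlap, as for 1.31% of probe sets with IL-1b lower, and the difference of -0.40 ± 0.13 did not pass (n = 5 per group, limma adjusted p = 0.247). In vehicle arrays over time, 0 genes of the 3 lists passed limma's test, and at an unadjusted p under 0.05 there were between 0 and 4 in a list and comparison. Over all 17831 probe sets there were 1502 to 1994.

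**Figure D4:**
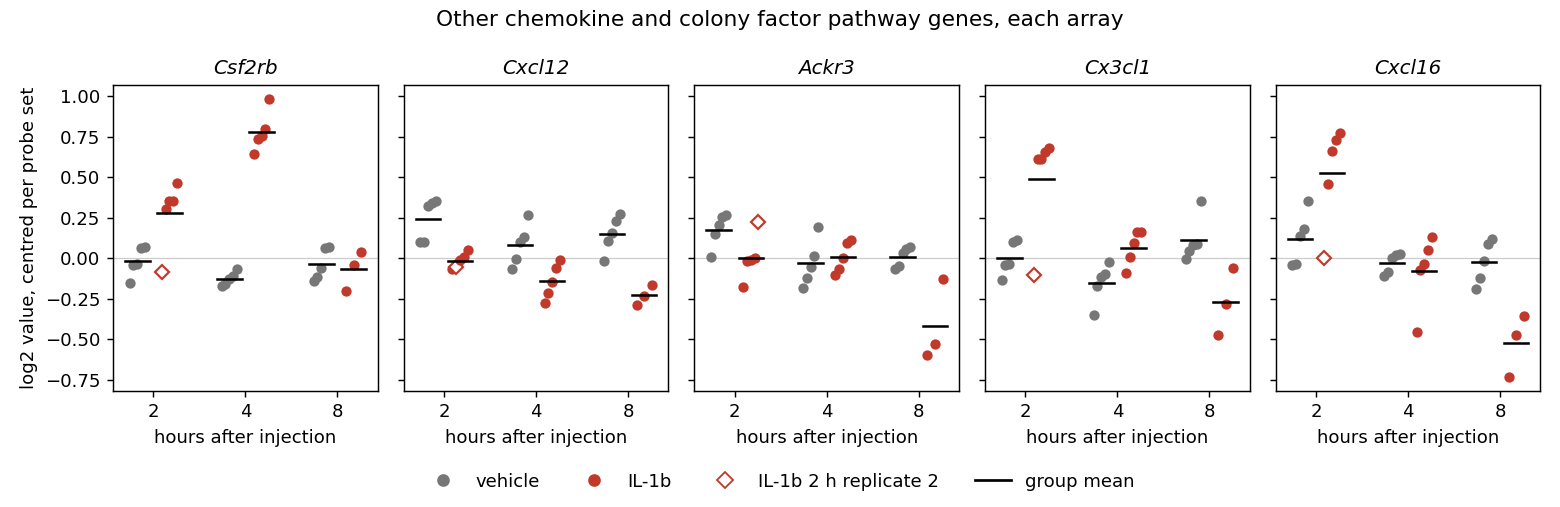
Centred log2 value of Csf2rb, Cxcl12, Ackr3, Cx3cl1 and Cxcl16 in each array by hours after injection, with vehicle in grey, IL-1b in red, group means as black lines and IL-1b 2 h replicate 2 as an open diamond. Csf2rb separates the groups at 4 h (IL-1b 0.64 to 0.98), Cxcl12 and Ackr3 lie lower in the 3 IL-1b arrays at 8 h, and the diamond lies apart from the 4 other IL-1b arrays for Csf2rb, Cx3cl1 and Cxcl16.

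Over the 28 arrays, the genes whose pattern was most like that of Csf1 were Tnfaip3 (Spearman's rho 0.79), Cx3cl1 (0.69) and Cd44 (0.65), all measured on the same arrays and so sharing each array's treatment and quality. Cd44 did not share the 2 h rise, with a difference of -0.0037 (limma adjusted p = 0.989). At 8 h Cd44 differed by -0.46 and did not pass (limma adjusted p = 0.0143). Tnfaip3, an inhibitor of NF-kB signalling, was higher by 0.68 at 2 h (limma adjusted p = 0.00214) and lower at 8 h, with a difference of -0.65 (limma adjusted p = 0.00114). The vehicle mean of Tnfaip3 was 0.011, -0.080 and 0.361 at 2, 4 and 8 h, and its IL-1b mean 0.688, -0.168 and -0.293. As for Csf1, the 8 h difference thus stands beside a higher vehicle mean at that time. In fits chosen after seeing the data, the 2 h difference of Tnfaip3 was 0.81 without IL-1b 2 h replicate 2 (limma adjusted p = 5.20e-07) and 0.69 without the 3 widely spread arrays (limma adjusted p = 0.00816). At 8 h, without the 3 arrays, Tnfaip3 did not pass (-0.59, limma adjusted p = 0.0211). The adhesion genes Selp, Icam1 and Vcam1 also had a lower IL-1b effect at 8 h than at 2 h, by -2.92, -2.06 and -1.99 (limma adjusted p = 0.00549, 0.00713 and 0.00383), beside -1.21 for Ackr1. Sele differed by -0.43 and did not pass (limma adjusted p = 0.359). Without replicate 2 the changes of Selp, Icam1 and Vcam1 were -3.56, -2.52 and -2.38 (limma adjusted p up to 1.92e-09). Without the 3 widely spread arrays they were -2.91, -2.19 and -1.996, and none of the 3 passed (limma adjusted p = 0.0391, 0.02965 and 0.0263). At 2 h the values of Selp, Icam1, Vcam1 and Sele in replicate 2 were -0.29, 0.19, -0.04 and -0.07. Icam1 there lay above every vehicle array of 2 h, and Selp, Vcam1 and Sele lay within the vehicle range.

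In bulk muscle, fewer cells of a type and less RNA per cell cannot be told apart. Of 16 neutrophil markers 14 were measured, and their mean was 0.212 to 0.415 in IL-1b replicates 4, 8, 10 and 12 at 2 h and -0.0025 in replicate 2, against -0.164 to 0.014 in vehicle, with 1 of 14 called higher (Retnlg). Among the arrays of 2 h, the same 4 were thus the highest for the neutrophil list and for Ccl2, Csf1 and Ackr1. At 8 h the widely spread vehicle replicate 1 had a neutrophil mean of 0.238. The mean of 13 measured monocyte and macrophage markers out of 16 was lower in IL-1b at 2 h (-0.253 to -0.112) than in vehicle (-0.076 to 0.250). At 8 h that list ran from 0.079 to 0.306 in IL-1b and from -0.120 to 0.012 in vehicle, with 1 of 13 called higher (Lyve1). Endothelial markers, which bear on Ackr1, had all 12 of 12 measured. Their mean was -0.177 to 0.059 in IL-1b against 0.039 to 0.201 in vehicle at 2 h, -0.286 to -0.104 against -0.104 to 0.195 at 4 h, and 0.0032 to 0.049 against 0.021 to 0.232 at 8 h. At 4 h, with Ackr1 higher in every IL-1b array, 0 of 12 endothelial markers were called higher and 2, Kdr and Eng, were called lower. At 2, 4 and 8 h, 9, 3 and 0 of 14 neutrophil markers had an unadjusted p under 0.05. So had 6, 5 and 3 of 13 monocyte and macrophage markers and 5, 7 and 4 of 12 endothelial markers. Over all 17831 probe sets, 1885, 1565 and 2301 had such a p at these times, and 0.0729%, 0.847% and 2.09% were called. Red cell markers, which also bear on Ackr1, had 4 of 10 measured and 0 called by limma's test at any time, with 1 at 2 h and 0 at 4 h and 8 h at an unadjusted p under 0.05. Their mean was -0.185 to -0.031 in IL-1b and -0.086 to 0.168 in vehicle at 2 h. Of 8 fibroblast markers 8 were measured and 0 were called by limma's test at any time, with 4, 0 and 4 at an unadjusted p under 0.05 at 2, 4 and 8 h. Their mean was -0.173 to 0.0098 in IL-1b and -0.048 to 0.439 in vehicle at 2 h, -0.517 to 0.283 against -0.235 to 0.120 at 4 h, and -0.546 to 0.075 against -0.037 to 0.293 at 8 h. Of 7 adipocyte markers 6 were measured and 0 were called by limma's test at any time, with 0, 1 and 0 at an unadjusted p under 0.05. Their mean was 1.45 in IL-1b 8 h replicate 14 and -0.36 in replicates 22 and 26, against -0.38 to 0.28 in vehicle. In vehicle 2 h replicate 9 it was 1.27. The T, NK and B cell and muscle fibre lists had 10 of 12 and 6 of 11 measured and 0 called. The part of these cell types in the results was not tested.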

How the data were processed

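Total RNA of mouse skeletal muscle was biotin-labelled with an Affymetrix kit, per the labels' protocols. The submitters' processing notes name RMA (background correction, normalization and probe summary) and build mm9 for the 28 arrays, and no software for RMA. The log2 values the authors deposited cover 17831 probe sets. The median of each is 0 (tolerance 1e-06), so they are centred and carry no level. RMA gives log2, and this base was assumed since none is stated. Centring leaves differences between groups as they are. The number of arrays limits the precision.

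Groups and replicate numbers came from sample titles, and 1 title that runs number and time together was read by the pattern of the others. The platform annotation gave 15620 probe sets 1 symbol, 1370 several and 841 none listed here. A linear model with 6 groups was fitted with limma 3.58.1 in R 4.3.3 (22 residual and 3.95 prior degrees of freedom), with contrasts for IL-1b against vehicle, vehicle over time and differences of effects. Every adjusted p is limma's, adjusted over all probe sets by Benjamini-Hochberg. The model was run on simulated data with independent normal noise and a change of 1.75-fold in every array of a group. These data held no array that stood apart and no widely spread array. The run thus does not bear on calls that depend on such arrays. Each member is named, as are members of the other gene lists that passed, receptors of the members, and the 3 genes most like Csf1. Members and lists were chosen with earlier results of these data known. Alternatives covered normalization, spread estimate, array weights, arrays left out, probe sets adjusted together, threshold, groups fitted and a replicate block. Treated and vehicle arrays of a time share no replicate number. Vehicle groups share some, and correlations of the deviations of same-numbered arrays ran from -0.434 to 0.678, so the numbers were not taken as pairs. Promoter sequences are RefSeq's (GRCm38.p6), and no other coordinates are given because the annotation belongs to another build than mm9.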

Additional observations from a re-analysis of the deposited data

Results flagged for a closer look

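In IL-1b 2 h replicate 2, Ccl2, Csf1, Ackr1 and Cx3cl1 lay far below the 4 other arrays of the group. The gap to the nearest array was 0.714, 0.779, 0.858 and 0.913 of the group's range for these genes. In vehicle 8 h replicate 1, one of the 3 widely spread arrays, Cxcl1 (0.30 against -0.20 to -0.10 in the other 4), Cxcl5 (0.27 against -0.12 to -0.02) and Cx3cl1 (0.36 against -0.0047 to 0.089) lay above the rest, with gaps of 0.791, 0.752 and 0.741 of the range. Csf1 in vehicle 2 h replicate 11 (-0.20 against 0.0020 to 0.028) had a gap of 0.887. A gap above 0.71 of the range in 5 arrays singled these out, in 8 of 75 groups of values. Chance does so in about 1 in 20. The 75 groups share arrays, and all flags except that in vehicle 2 h replicate 11 came from IL-1b 2 h replicate 2 or vehicle 8 h replicate 1. The count thus cannot show an excess over that rate.

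The IL-1b effect differed between times for 4 genes by limma's test of the difference. From 2 h to 8 h it changed by -1.21 for Ackr1, by -0.90 for Cxcl16 and by -0.88 for Cx3cl1, and from 4 h to 8 h by -0.94 for Csf2rb. In 18 fits that left out 1 array each, the change passed in 10 for Ackr1, in 4 for Cxcl16, in 6 for Cx3cl1 and in 18 for Csf2rb. Against the vehicle arrays of the same time, Ackr1 was above all in the 5 IL-1b arrays at 4 h and below all in the 3 at 8 h. The change of -0.90 between these times did not pass (limma adjusted p = 0.0798).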

How the results depend on the processing

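Of 1985 alternative fits of a gene's difference, 1894 stayed on the same side of the threshold, 72 lost a call, 19 gained one and 0 reversed a called direction. Past the threshold in neither fit, 143 differences changed sign. Most of these differences were not called in the main fit, so the total says little about how stable the calls were. With 1 array left out, the call was kept in 1 of 10 fits for Csf1 at 2 h. For the effect at 8 h against 2 h it was kept in 10 of 18 for Ackr1, 4 of 18 for Cxcl16 and 6 of 18 for Cx3cl1. At 8 h it was kept in 3 of 8 for Cxcl12 and 1 of 8 for Ackr3. Both calls of Csf2rb were kept in every such fit. The member count at 2 h, 1 of 10, was 0 after further quantile normalization, with a trended and robust spread estimate, without the 3 widely spread arrays and with only the 2 groups of that time fitted. It was 3 with array weights (limma's gene-by-gene method, as the default did not converge) and 3 at a threshold of 0.05. The weight of IL-1b 2 h replicate 2 was 0.61, against 1.37 to 2.62 in the 4 others of its group. Gains with array weights in comparisons that use this group are thus no separate support. For the effect at 8 h against 2 h, 1 of 10 became 0 under the same normalization, the same spread estimate and without the 3 arrays, 3 with array weights and 2 at a threshold of 0.05. Counts of 0 became 1 at 4 h (Ackr1) with array weights and with only the 2 groups fitted, and with array weights 1 at 8 h, 2 for the effect at 4 h against 2 h and 1 for 8 h against 4 h. The selection took 1 member in place of 2 after further quantile normalization. Leaving out 1 array each gave 0 to 3 members at 2 h, 0 to 2 for the effect at 4 h against 2 h and 0 to 3 for 8 h against 2 h, and 0 in the other comparisons. A random replicate block left Csf1 at 2 h at 0.90 (limma adjusted p = 0.0093) and the member count at 1; with a fixed replicate block the vehicle comparisons called 0 members and 0, 5 and 0 probe sets (4 h against 2 h, 8 h against 2 h, 8 h against 4 h), in place of 18, 152 and 23. Counts of probe sets moved by over 1.5 times as follows. At 2 h, 13 became 26 with quantile normalization, 7 with the trended estimate, 80 with array weights, 8 without the 3 arrays, 44 at the threshold of 0.05, 0 with 2 groups, and 2 to 40 with an array left out. At 4 h, 151 became 450 with array weights, 265 at 0.05, 98 with 2 groups and as few as 93 with an array left out; at 8 h, 373 became 130 with quantile normalization, 836 with array weights, 718 at 0.05 and 37 with 2 groups. For the effect at 8 h against 2 h, 94 became 12, 47, 192, 33 and 221 with quantile normalization, the trended estimate, array weights, without the 3 arrays and at 0.05, and as few as 44 with an array left out. For 8 h against 4 h, 31 became 7, 16, 164 and 79 with quantile normalization, the trended estimate, array weights and 0.05. For 4 h against 2 h, 9 became 0 with the trended estimate, 63 with array weights, 23 at 0.05 and 2 to 27 with an array left out. In vehicle over time, array weights gave 31, 276 and 87 in place of 18, 152 and 23, the threshold of 0.05 gave 84, 331 and 53, fitting only the 3 vehicle groups gave 4, 56 and 0, and the lowest counts with an array left out were 5, 79 and 6. The count of 18 was also 28 with quantile normalization, 11 without the 3 arrays and 32 with the random block, and that of 23 was 8 and 10 with quantile normalization and the trended estimate. Causes of these changes were not tested. Signal over background cannot be read from centred values.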
